A study of Mus musculus with 19 samples.

Results

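The mouse Ifitm genes encode the interferon-induced transmembrane proteins, and 4 of them, Ifitm1, Ifitm2, Ifitm3 and Ifitm10, were followed across embryonic brain and adult cerebellum of mice with 1 or 2 working copies of Wiz. They were matched by symbol to 4 of the 41388 Ensembl gene identifiers in the count data. Ifitm2 was selected on the measured counts themselves, because it was higher in Wiz MommeD30/+ than in Wiz +/+ embryonic brain. Its values in male and female brain are therefore a description with no test, and those in females are not independent evidence of a direction. Ifitm1 and Ifitm3 were included as its neighbours in a gene cluster on chromosome 7, and Ifitm10 as a relative outside that cluster.

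IFITM proteins are short membrane proteins of the dispanin family, which share the CD225 domain. They sit in the plasma membrane and in endosomes, where the immune members hinder the fusion of enveloped viruses with the cell. IFITM1, IFITM2 and IFITM3 are induced by type I and type II interferons through STAT and IRF factors, and Ifitm1 and Ifitm3 are also known as markers of early germ cells. Ifitm10 is a divergent member with no settled antiviral role. Wiz is a zinc finger protein that partners the histone methyltransferases G9a and GLP, and the study asked which transcripts depend on its dosage.

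RNA-seq of polyA RNA was carried out on 16 samples from FVB mice. Whole brains came from embryos at 13.5 days post coitum, obtained by intercrossing heterozygotes, with 3 Wiz +/+ and 3 Wiz MommeD30/+ males and 2 Wiz +/+ and 2 Wiz MommeD30/+ females. Cerebellums came from 3 Wiz +/+ and 3 Wiz MommeD30/+ adult males at 56 days post partum. MommeD30 is a chemically induced mutation that was kept by crossing to Line3, a strain homozygous for a multicopy GFP transgene under a human alpha-globin promoter. Both genotypes therefore come from that colony, and the mutation is 1 allele. The samples are given as biological replicates, and nothing beyond that ties a brain to a litter.

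Total counts per sample ran from 16386029 in the second male Wiz +/+ brain to 50459755 in the first. Wiz itself was lower in every Wiz MommeD30/+ sample, with 118 to 126 against 182 to 200 CPM (counts of a gene scaled by the total counts of its sample) in male brain. The values were 127 to 130 against 186 to 195 CPM in female brain, and 66.6 to 67.7 against 95.4 to 95.5 CPM for cerebellum. Of the cerebellar granule and Purkinje cell markers, 8 of 8 were called higher in Wiz +/+ cerebellum than in Wiz +/+ male brain. By the limits given below, 36.4% of all genes were called higher in that comparison. The fold changes below were fitted with the quasi-likelihood test of edgeR, adjusted over all genes by Benjamini-Hochberg. Calls required a fold change below 0.7 or above 1.3 together with an adjusted p no greater than 0.05, the limits the study used.

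All 4 genes lie on chromosome 7 of GRCm38 (mm10). Ifitm2 (ENSMUSG00000060591) spans chr7:140954837-140955987 on the minus strand, Ifitm1 (ENSMUSG00000025491) chr7:140967221-140969825 on the plus strand and Ifitm3 (ENSMUSG00000025492) chr7:141009586-141010770 on the minus strand. These 3 genes fit in 55.9 kb, with 11.2 kb between Ifitm2 and Ifitm1 and 39.8 kb between Ifitm1 and Ifitm3. Ifitm10 (ENSMUSG00000045777) spans chr7:142325837-142373753 on the minus strand, 1315 kb beyond Ifitm3, so it is outside the cluster but on the same chromosome. Ifitm5 and Ifitm6 flank the cluster, and Ifitm7 is on chromosome 16.

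The RefSeq start regions of the 4 genes are shown because the letters of the interferon-stimulated response element separate these regions. Each stretch runs from 90 bases before to 30 bases after the RefSeq start site, 5′ to 3′ on the gene's own strand, with the sequence from RefSeq on GRCm38.p6. Capitals mark matches to the core of that element (GAAA, any 2 bases, GAAA) and to the gamma-activated site (TTC, any 3 bases, GAA), both searched on both strands. Of the 3 RefSeq start windows of Ifitm10, the one nearest to the annotated gene start is shown.

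Ifitm2, chr7:140955932-140956051, minus strand: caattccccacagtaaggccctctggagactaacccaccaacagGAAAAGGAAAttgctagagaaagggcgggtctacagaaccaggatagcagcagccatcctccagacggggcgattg

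Ifitm3, chr7:141010715-141010834, minus strand: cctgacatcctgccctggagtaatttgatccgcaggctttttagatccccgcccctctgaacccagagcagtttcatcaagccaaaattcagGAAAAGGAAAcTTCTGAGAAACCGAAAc

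Ifitm1, chr7:140967986-140968105, plus strand: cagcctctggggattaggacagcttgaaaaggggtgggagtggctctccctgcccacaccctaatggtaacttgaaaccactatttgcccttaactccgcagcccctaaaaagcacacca

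Ifitm10, chr7:142373717-142373836, minus strand: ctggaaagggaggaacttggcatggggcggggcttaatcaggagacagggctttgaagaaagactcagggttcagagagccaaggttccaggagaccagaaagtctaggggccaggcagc

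In the full 300-base windows, Ifitm2 held the response element core once, starting 46 bases before its start site. Ifitm3 held it at positions 3 and 20 after its start site, with a gamma-activated site match at position 14 that overlaps the second core. Ifitm2 and Ifitm3 shared the 13-base run caggaaaaggaaa, the longest run common to both windows, which contains the core. The windows of Ifitm1 and Ifitm10 held neither motif. The Ifitm1 window lies around the RefSeq start at 140968076 and does not reach the annotated gene start at 140967221, which was not searched. Across 32817 RefSeq promoter windows of the same length, 3.43% held the response element core and 8.29% the gamma-activated site. None of the windows of the 4 genes held a core of the CTCF motif (CC, any 3 bases, AG, any 2 bases, GGC), found in 8.61% of all windows. A match is a match of letters only, and no occupancy was measured here.

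Ifitm2 had a higher CPM in every heterozygous embryonic brain than in any Wiz +/+ brain. The 3 male Wiz +/+ brains had 16.53, 18.13 and 18.01 CPM, and the 3 male Wiz MommeD30/+ brains had 23.32, 24.32 and 23.90 CPM. The group means were 17.6 ± 0.890 and 23.8 ± 0.507 CPM (SD, n = 3 each), and the fitted log2 fold change was 0.45 with a standard error of 0.058, or a fold change of 1.36. The lowest heterozygous brain stood above the highest Wiz +/+ brain. Since a difference in this direction chose the gene, nothing is read from it. Groups that did not overlap, with the heterozygotes higher, made up 6.07% of the genes tested in male brain.

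For the same reason the values on either side of the limits in male brain only describe the choice. The 3 genes inside them on the higher side, 0.0178% of all genes, were Ifitm2, Slc43a3 and Heph, with fold changes of 1.363, 1.428 and 1.495. The nearest genes outside the limit on adjusted p were Calb1, Gm14418 and Dach2, with fold changes of 1.35, 1.71 and 1.41.

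Female brains belong to the tissue in which Ifitm2 was chosen, and earlier results were known then, so their values are not independent of the choice. The Wiz +/+ females had 20.3 and 17.4 CPM and the Wiz MommeD30/+ females 26.1 and 22.8 CPM. Again both heterozygous brains were above both Wiz +/+ brains, as were 19.9% of all genes tested with 2 brains a side. The means were 18.9 ± 2.07 and 24.5 ± 2.32 CPM (SD, n = 2 each), and the log2 fold change was 0.37 with a standard error of 0.106 and a 95% interval of 0.12 to 0.62. No test of Ifitm2 is given here, and nothing is read from this interval. Of the 17152 genes tested in females, 19, or 0.111%, were called, and all of them were lower. Across the alternatives and the left-out brains, the log2 fold change of Ifitm2 was between 0.26 and 0.49.

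**Figure D1:**
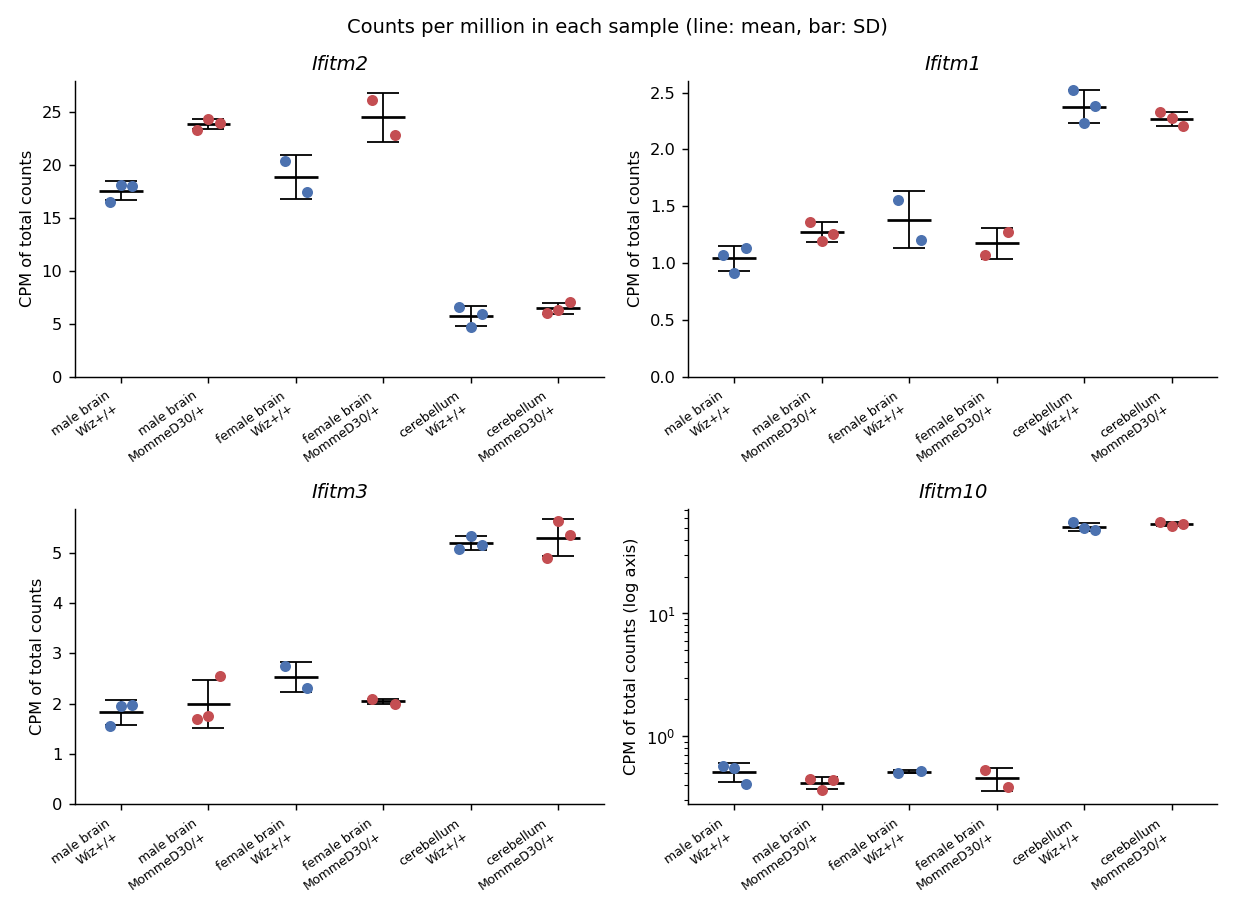
Level of each gene in every sample, in CPM of total counts, by sex, tissue and genotype (points: samples; line: group mean; bar: SD; Ifitm10 on a log axis). Ifitm2 was at 16.5 to 20.3 CPM in the 5 Wiz +/+ brains and at 22.8 to 26.1 CPM in the 5 Wiz MommeD30/+ brains, and Ifitm10 was high in cerebellum alone.

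The sexes were also compared by the genotype difference itself. For Ifitm2 the female difference less the male difference was -0.07 on the log2 scale, with an interval of -0.32 to 0.17, given as a description because it contains the male contrast. Fitted over all 10 brains with sex as a covariate, the log2 fold change of Ifitm2 was 0.41 with a standard error of 0.055. The other 3 genes were not called in that fit, which called 0.346% of genes, and lay between -0.24 and 0.03 (adjusted p of 0.664 to 0.986, edgeR).

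In adult cerebellum the Ifitm2 groups overlapped. The Wiz +/+ samples had 6.5, 4.7 and 5.9 CPM and the Wiz MommeD30/+ samples 6.0, 6.3 and 7.0 CPM. The log2 fold change was 0.17 with a standard error of 0.114 and a 95% interval of -0.07 to 0.41 (adjusted p = 0.429, edgeR quasi-likelihood), and 0.832% of genes were called in this tissue. The interval holds both 0 and the female brain estimate of 0.37, and not the male brain estimate of 0.45. Both brain estimates are descriptions. The estimate was 0.06 without the second Wiz +/+ cerebellum and 0.28 without the first, so its size rests on single samples. The cerebellar difference less the male brain difference was -0.28 on the log2 scale, with an interval of -0.54 to -0.01, again a description only. It was -0.40 without the second Wiz +/+ cerebellum and -0.17 without the first.

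Ifitm1, which lies next to Ifitm2 and is transcribed in the opposite direction, had few counts, between 15 and 77 per sample. In male brain the Wiz +/+ samples had 1.07, 0.915 and 1.13 CPM and the Wiz MommeD30/+ samples 1.36, 1.20 and 1.26 CPM. The male groups did not overlap, as for 6.07% of genes tested with the heterozygotes higher. The log2 fold change of 0.26 had a standard error of 0.170 and was not called (adjusted p = 0.742, edgeR quasi-likelihood). In female brain the order was the other way, with 1.56 and 1.20 CPM in Wiz +/+ and 1.07 and 1.27 CPM in Wiz MommeD30/+ brains. These groups overlapped, and the log2 fold change was -0.24 with a standard error of 0.229 (adjusted p = 0.900, edgeR).

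Ifitm3, the member best known for restricting influenza virus, had 32 to 166 counts per sample. Male Wiz +/+ brains had 1.55, 1.95 and 1.98 CPM and male Wiz MommeD30/+ brains 1.69, 1.76 and 2.54 CPM. The groups overlapped, and the higher heterozygous mean came from 1 brain: the log2 fold change was 0.15 with all brains and -0.05 without the third heterozygous brain (adjusted p = 0.867 and 0.967, edgeR). Female Wiz +/+ brains had 2.74 and 2.32 CPM and female Wiz MommeD30/+ brains 2.08 and 2.00 CPM. Both heterozygous females were below both Wiz +/+ females, as were 16.4% of genes tested, and the log2 fold change of -0.31 had an interval of -0.72 to 0.09 (adjusted p = 0.816, edgeR).

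Ifitm10 was close to the limit of detection in embryonic brain, with 9 to 29 counts in each. Male brains had 0.575, 0.549 and 0.407 CPM in Wiz +/+ and 0.446, 0.366 and 0.439 CPM in Wiz MommeD30/+. Female brains had 0.505 and 0.523 CPM against 0.526 and 0.387 CPM. Both pairs of groups overlapped, with log2 fold changes of -0.30 (standard error 0.264) and -0.17 (standard error 0.309). The 95% intervals ran from -0.88 to 0.27 in males and from -0.90 to 0.55 in females.

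None of the 3 other genes was called in male or female brain, where 0.184% and 0.111% of all genes were called in either direction. None of the 4 was called in cerebellum. At an unadjusted p under 0.05 the counts by edgeR were 0 of 3 in male and in female brain, without Ifitm2, and 0 of 4 for cerebellum. The shares of all genes under that p were 8.45%, 6.40% and 19.9%. DESeq2's Wald test called 0 of these genes in each. In cerebellum Ifitm1 had 2.52, 2.23 and 2.38 CPM against 2.33, 2.27 and 2.20 CPM, and Ifitm3 had 5.07, 5.33 and 5.15 CPM against 4.90, 5.63 and 5.35 CPM. Ifitm10, which had 55.52, 49.96 and 48.03 CPM in Wiz +/+ and 55.35, 51.51 and 53.77 CPM in Wiz MommeD30/+ cerebellum, gave the narrowest interval of the 4, from -0.04 to 0.17 around a log2 fold change of 0.07 (adjusted p = 0.487, edgeR).

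**Figure D2:**
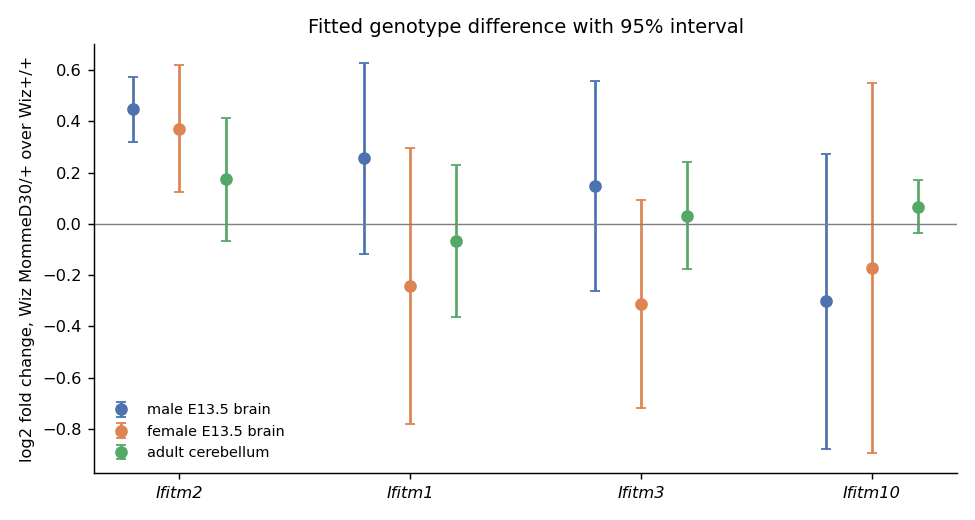
Fitted log2 fold change of Wiz MommeD30/+ over Wiz +/+ with its 95% interval, for each gene in male E13.5 brain, female E13.5 brain and adult cerebellum. The Ifitm2 intervals in male brain (0.32 to 0.57) and female brain (0.12 to 0.62) lie above 0 and are descriptions, since the gene was chosen for being higher in heterozygous embryonic brain, and every other interval crosses 0.

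The genotype difference of the 3 genes other than Ifitm2 did not pass the test of a change between tissues or between sexes. Cerebellum less male brain was -0.32 for Ifitm1, -0.12 for Ifitm3 and 0.37 for Ifitm10 on the log2 scale, with adjusted p of 0.694, 0.914 and 0.716 (edgeR), where 0.26% of genes passed. Females less males was -0.50 for Ifitm1 and -0.46 for Ifitm3, both with an adjusted p of 0.985, and 0.13 for Ifitm10. No gene of 17620 passed that test in edgeR, 701 had an unadjusted p under 0.05 and DESeq2 called 1.

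Added together, Ifitm1, Ifitm2 and Ifitm3 had 20.4 ± 1.11 CPM in male Wiz +/+ brain and 27.1 ± 0.683 CPM in male Wiz MommeD30/+ brain (SD, n = 3 each). Female brains had 22.8 ± 2.62 and 27.7 ± 2.24 CPM (SD, n = 2 each), and cerebellums 13.3 ± 0.9498 and 14.0 ± 0.668 CPM (SD, n = 3 each). Ifitm2 made up most of the sum in brain. Its share was 85.3% to 86.3% in male Wiz +/+, 86.3% to 89.2% in male Wiz MommeD30/+, 82.6% to 83.2% in female Wiz +/+ and 87.5% to 89.2% in female Wiz MommeD30/+ brains. In cerebellum the share was 38.3% to 46.3% and 44.3% to 48.1%. The sum thus followed Ifitm2 in brain and was shared with Ifitm3 in cerebellum.

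Tissue separated the genes far more than genotype did. In Wiz +/+ males, Ifitm2 was lower in adult cerebellum than in embryonic brain, while Ifitm1, Ifitm3 and Ifitm10 were higher. The male Wiz +/+ brains compared here also entered the contrast that chose Ifitm2. All 4 genes were called, in a comparison that called 69.3% of genes (36.4% higher and 32.9% lower in cerebellum). None of the groups overlapped, as for 43.1% of genes with the cerebellum higher and 44.1% with it lower. Ifitm2 went from 17.6 ± 0.890 to 5.71 ± 0.940 CPM (SD, n = 3 each), and its log2 fold change was -1.40 with a standard error of 0.099 (adjusted p = 2.69e-09, edgeR). Ifitm1 rose from 1.04 ± 0.113 to 2.38 ± 0.146 CPM and Ifitm3 from 1.83 ± 0.243 to 5.19 ± 0.135 CPM, with log2 fold changes of 1.37 and 1.75 (adjusted p = 1.39e-06 and 5.39e-09, edgeR).

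Ifitm10 went from 0.510 ± 0.090 to 51.2 ± 3.89 CPM, and its log2 fold change was 6.84 with a standard error of 0.114 (adjusted p = 9.15e-17, edgeR). Fits used TMM scaling and CPM used total counts, so cerebellum over brain differed between them. It was 114.3 fitted and 100.3 by mean CPM for Ifitm10, and 0.380 and 0.325 for Ifitm2. Neighbours in the cluster thus moved in opposite directions between these samples, Ifitm2 downward and Ifitm1 and Ifitm3 upward. Age, tissue and any difference in when the libraries were made cannot be told apart in this comparison. In whole tissue, fewer cells of a type and less RNA per cell cannot be told apart either.

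Scaled by the length of the exons, the order of the genes changed between tissues. In male Wiz +/+ brain Ifitm2 was at 26.8 CPM per kb, Ifitm3 at 2.69, Ifitm1 at 0.951 and Ifitm10 at 0.107, and no 2 neighbours in this order overlapped between samples. In Wiz +/+ cerebellum Ifitm10 led at 10.7 CPM per kb, ahead of Ifitm2 at 8.72, Ifitm3 at 7.65 and Ifitm1 at 2.17. There the samples of Ifitm10 (10.03 to 11.6) and Ifitm2 (7.16 to 9.99) lay side by side, those of Ifitm2 and Ifitm3 (7.48 to 7.87) overlapped, and Ifitm1 (2.04 to 2.30) stood below. The exon lengths used were 655 bases for Ifitm2, 1094 for Ifitm1, 678 for Ifitm3 and 4789 for Ifitm10.

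**Figure D3:**
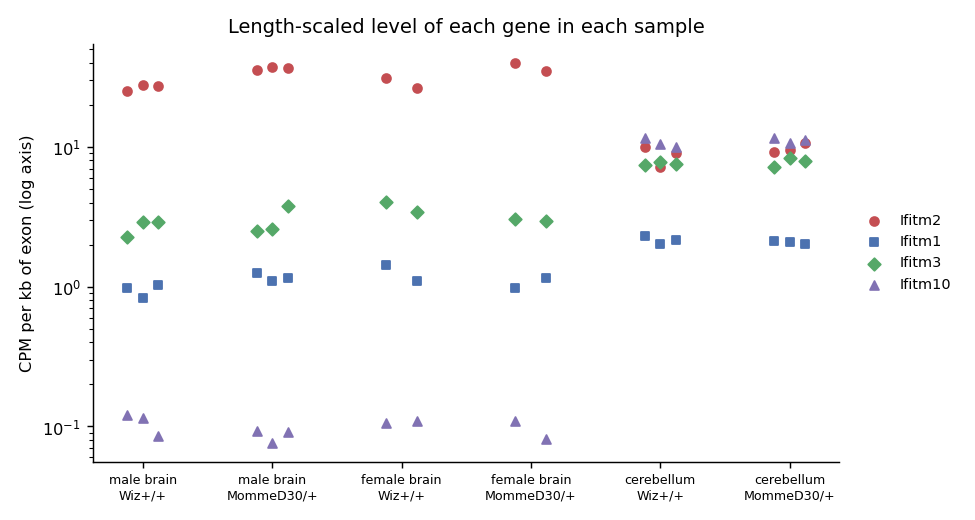
CPM per kb of exon on a log axis for each gene in every sample of the 6 groups. Ifitm2 is the highest of the 4 genes in each embryonic brain, and in Wiz +/+ cerebellum Ifitm2, Ifitm3 and Ifitm10 come within 7.16 to 11.6 CPM per kb.

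How far reads of these genes can be told from those of other genes was examined by sliding a 100-base window, the length of the reads, along their transcripts. Ifitm1 and Ifitm3 had no window in common with any other gene among 1006 and 579 windows. Ifitm2 shared 26 of 556 windows with the pseudogenes Gm11951 and Gm8865, which had at most 2 counts in any sample. The rest of its 194 shared windows matched Gm45717, an annotated transcript that overlaps it on the same strand and is not among the counted genes. Ifitm10 shared 118 of 4785 windows with Gm49369, which overlaps it in the same way. How reads with more than 1 match were counted is not given in the sources used here, so Ifitm2 carries that uncertainty in the windows shared with the pseudogenes. In the windows shared with Gm45717 and Gm49369, reads of those overlapping transcripts cannot be told from reads of Ifitm2 and Ifitm10.

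The other genes around the cluster gave no calls. Within 250 kb of it lie 33 other annotated genes, of which 18 were tested in each sex of brain and 19 in cerebellum. None was called by edgeR or DESeq2 in any of the 3 comparisons, and 2, 0 and 1 of them had an unadjusted p under 0.05 in edgeR, beside 8.45%, 6.40% and 19.9% of all genes. Their median log2 fold changes were -0.01, 0.01 and 0.00, beside medians of all genes of 0.00 in each. In male brain they ran from -1.08 for Cyp2e1, a cytochrome P450, to 0.18 for Gm15542, and 8 of 18 were above 0.

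The nearest tested genes on each side of the cluster showed small differences. Pgghg, a glucosidase that acts on collagen and whose gene starts 14.6 kb before Ifitm2, had log2 fold changes of 0.08 in male and 0.14 in female brain (adjusted p = 0.821 and 0.867, edgeR). B4galnt4, a glycosyltransferase gene beyond Ifitm3 that starts 105 kb from the Ifitm2 start site, had 0.04 and -0.01 (adjusted p = 0.814 and 0.983, edgeR). Sirt3, Psmd13, Ric8a and Bet1l, farther from the cluster on the Pgghg side, had male log2 fold changes of 0.03, -0.04, -0.02 and -0.05.

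Around Ifitm10, 28 other genes lie within 250 kb, and 7 of them were tested in each sex of brain and 6 in cerebellum. None was called by edgeR or DESeq2. In edgeR 1, 0 and 1 had an unadjusted p under 0.05, beside 8.45%, 6.40% and 19.9% of all genes. Ctsd, the lysosomal protease cathepsin D and the closest of them, had log2 fold changes of -0.0046, -0.10 and -0.09. H19, an imprinted non-coding RNA, had 0.01, -0.05 and 0.31 (adjusted p = 0.979, 0.967 and 0.324, edgeR).

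**Figure D4:**
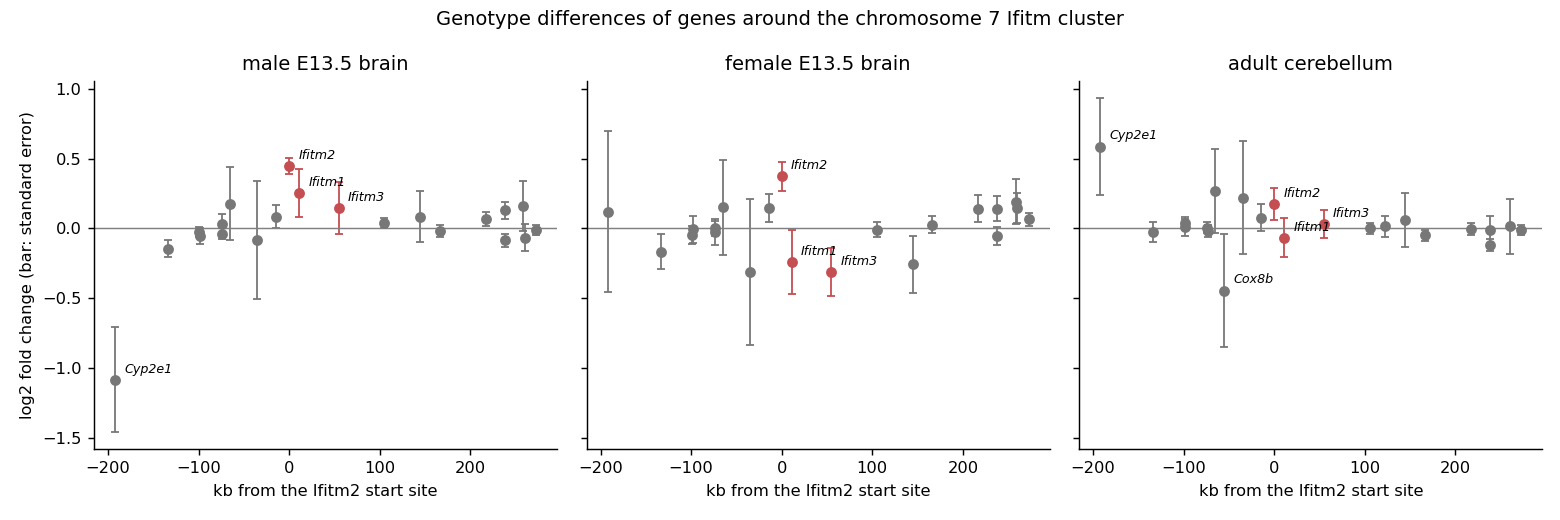
Log2 fold change of Wiz MommeD30/+ over Wiz +/+ (bar: standard error) of each tested gene against its distance in kb from the Ifitm2 start site, in male brain, female brain and cerebellum (red: Ifitm genes; grey: other genes). Ifitm2, chosen on this difference, is plotted at 0.45 in male and 0.37 in female brain, and the other genes of the interval have medians of -0.01 and 0.01.

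The other dispanins gave no calls between genotypes. Of 10 listed, 7 were tested in brain, none was called, and the medians were -0.17 in male and -0.34 in female brain, beside 0.00 for all genes. In edgeR 1 had an unadjusted p under 0.05 in each sex (Ifitm7 in males, Syndig1l in females), beside 8.45% and 6.40% of all genes. DESeq2 called none. The most abundant were Prrt1 and Syndig1, AMPA receptor-associated proteins, at 19.4 and 8.30 CPM in male Wiz +/+ brain with log2 fold changes of -0.17 and 0.04 in males. Prrt2, a presynaptic protein, had -0.17 in males and -0.34 in females, and Syndig1l -0.25 and -0.49. In cerebellum 6 were tested and none was called. Prrt1 and Syndig1l had an unadjusted p under 0.05 in edgeR, beside 19.9% of all genes. Syndig1l, at a log2 fold change of 0.32, also had an adjusted p of 0.00951 (edgeR) and missed a call on the fold limit alone. Prrt1 was at -0.14 with an adjusted p of 0.0577 (edgeR). Between tissues, 5 of 7 were called higher in Wiz +/+ cerebellum and 2 lower, beside 36.4% and 32.9% of all genes. Prrt1, Syndig1 and Prrt2 had log2 fold changes of 3.28, 3.56 and 4.22.

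Ifitm7, named here after its values were seen, had the highest log2 fold change of the listed dispanins in each sex of brain. Male Wiz +/+ brains had 0.912, 1.10 and 0.756 CPM and male Wiz MommeD30/+ brains 1.39, 1.42 and 1.14 CPM. Female brains had 0.674 and 1.16 CPM against 1.18 and 1.40 CPM. The groups did not overlap, as for 6.07% of genes tested in males and 19.9% in females with the heterozygotes higher. With 18 to 65 counts per brain, the log2 fold changes of 0.56 and 0.50 were not called (adjusted p = 0.468 and 0.825, edgeR). Ifitm7 shared 160 of 2373 windows with 2900011O08Rik, a gene with up to 4807 counts in a sample, so its counts are uncertain.

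Genes that act on the Ifitm3 protein gave no calls between genotypes. The list held Nedd4, which ubiquitinates it, Setd7, which methylates it, Zdhhc20, which palmitoylates it, and its partners Vapa and Zmpste24. None of the 5 was called or had an unadjusted p under 0.05 in edgeR in male brain, female brain or cerebellum, and DESeq2 called none. Their log2 fold changes ran from -0.05 to 0.05 in males, from -0.04 to 0.05 in females and from -0.04 to 0.04 in adult cerebellum. Nedd4 was abundant, at 1934 CPM in male Wiz +/+ and 2003 CPM in male Wiz MommeD30/+ brain.

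The receptors and signalling genes upstream of the Ifitm genes were all expressed, and 13 of 13 were tested. None was called in male brain, female brain or cerebellum by edgeR or DESeq2. At an unadjusted p under 0.05 in edgeR were 1, 0 and 2, beside 8.45%, 6.40% and 19.9% of all genes. Median log2 fold changes were 0.02, -0.01 and -0.02. Ifnar1, a chain of the type I interferon receptor, had 115 and 118 CPM in male Wiz +/+ and Wiz MommeD30/+ brain, the kinase Jak1 119 and 118 CPM, and Stat2, which carries the type I signal to the nucleus, 33.4 and 34.4 CPM.

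Interferon-stimulated genes other than the Ifitm genes were listed to set Ifitm2 beside them. Of 29, 20, 22 and 26 were tested in male brain, female brain and cerebellum, and none was called by edgeR or DESeq2. In each comparison 2 had an unadjusted p under 0.05 in edgeR, beside 8.45%, 6.40% and 19.9% of all genes. In brain these were Ifit2, which binds foreign RNA, in both sexes, with Ifi27 in males and Oasl2, lower at -0.61, in females. In cerebellum they were Rsad2, higher, and Trim25, lower at -0.26. The medians were 0.08, -0.01 and -0.03, beside 0.00 for all genes, with 14 of 20, 11 of 22 and 10 of 26 above 0. Some had larger log2 fold changes than Ifitm2 and are named here after their values were seen. In male brain these were Ifi27 at 0.75, Rsad2 at 0.56 and Gbp3 at 0.51, with standard errors of 0.204 to 0.310. In female brain they were Rtp4 at 0.51, Mx2 at 0.40 and Ifi27 at 0.39, with standard errors of 0.213 to 0.422. In cerebellum they were Rsad2 at 0.68, Rtp4 at 0.24 and Ifit3b at 0.21. Ifi27 had 1.25 and 2.22 CPM in male Wiz +/+ and Wiz MommeD30/+ brain and was not called (adjusted p = 0.279, edgeR).

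The 4 most abundant of these genes were Ly6e, Samhd1, Eif2ak2 and Trim25. Ly6e, a membrane protein that affects virus entry, had 31.5 and 32.7 CPM in male Wiz +/+ and Wiz MommeD30/+ brain, and Samhd1, which depletes nucleotides, 41.1 and 43.5 CPM. Eif2ak2, the RNA-activated kinase PKR, had 13.1 and 13.2 CPM and Trim25, a ubiquitin ligase of RNA sensing, 12.9 and 12.6 CPM. Ifit2 had 7.85 and 9.96 CPM in males and 7.003 and 8.757 CPM in females, log2 fold changes of 0.31 and 0.32 (adjusted p = 0.280 and 0.773, edgeR).

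The summed level of the 29 genes was 123 to 126 CPM in male Wiz +/+ and 130 to 136 CPM in male Wiz MommeD30/+ brain, and 123 to 132 against 135 to 140 CPM in females. These sums did not overlap between genotypes in either sex, and how often sums of other genes separate was not computed. The most abundant genes weigh most in them. In Wiz +/+ and Wiz MommeD30/+ females Samhd1 had means of 40.5 and 45.2 CPM, and Ly6e 32.3 and 35.2 CPM. Gene by gene, 14 of 20 were above 0 in males and 11 of 22 in females. In cerebellum the sums were 181 to 189 and 180 to 183 CPM. Between tissues, 20 of 26 genes were called higher in Wiz +/+ cerebellum and 2 lower, beside 36.4% and 32.9% of all genes. Their median log2 fold change against male brain was 1.47. Ifitm1 and Ifitm3 were higher in cerebellum too, and Ifitm2 was lower.

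**Figure D5:**
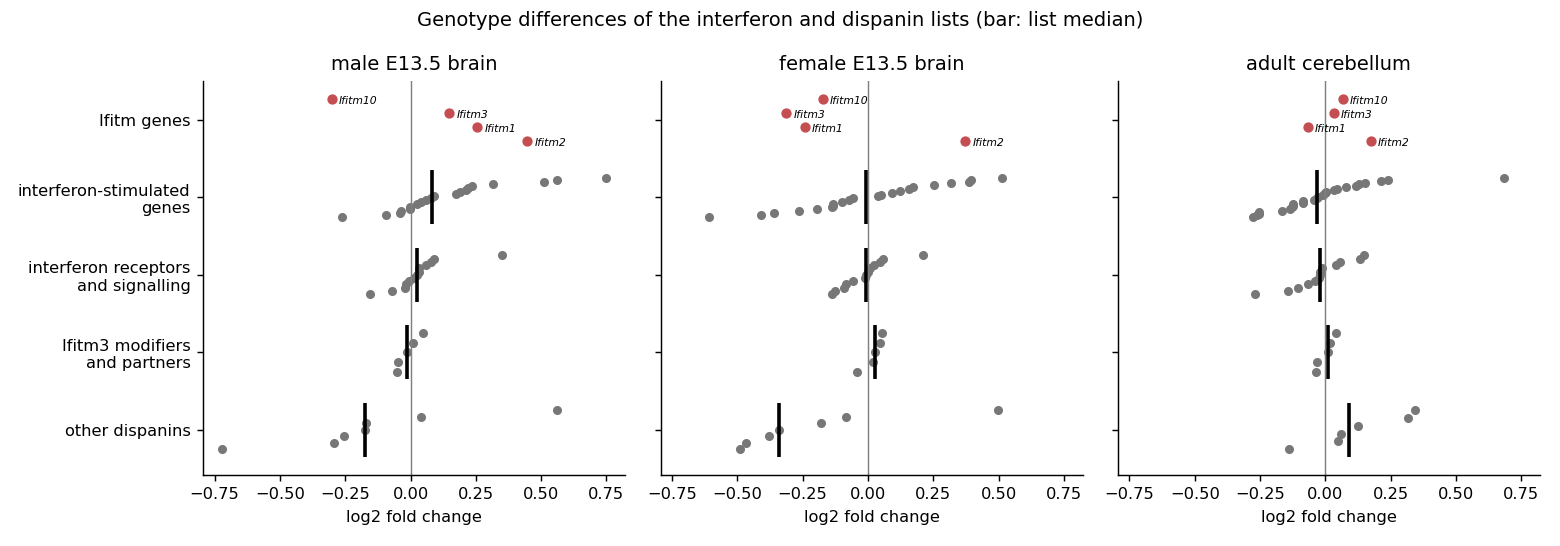
Log2 fold change of Wiz MommeD30/+ over Wiz +/+ for the genes of 4 lists (grey points, black bar at the list median) and for the 4 Ifitm genes (red), in male brain, female brain and cerebellum. The interferon-stimulated genes centre on 0.08, -0.01 and -0.03, Ifitm2 is plotted at 0.45, 0.37 and 0.17, and 3 of the stimulated genes lie farther right than Ifitm2 in each comparison.

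Ifitm genes are expressed in vessels, connective tissue and blood-derived cells, so markers of those cells were set beside them. The 9 endothelial markers summed to 331 to 348 CPM in male Wiz +/+ and 341 to 348 CPM in male Wiz MommeD30/+ brain, and to 371 to 381 against 345 to 370 CPM in females. The 7 mural cell markers summed to 193 to 199 and 188 to 192 CPM in males and 227 to 233 and 197 to 218 CPM in females. The mural sums were lower in heterozygotes without overlap in both sexes, and the endothelial sums were lower without overlap in females and overlapped in males. How often sums of other genes separate in this way was not computed, here or for the lists below.

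The fibroblast and meningeal markers overlapped between genotypes in both sexes, at 586 to 665 and 596 to 635 CPM in males and 784 to 814 and 736 to 813 CPM in females. The microglia and macrophage markers had 54.6 to 60.9 and 58.2 to 58.6 CPM in males and 69.4 to 70.7 and 63.8 to 66.2 CPM in females. Erythroid markers had 690 to 970 and 842 to 1103 CPM in males and 1283 to 1338 and 1192 to 1224 CPM in females. The microglial and erythroid sums were thus also lower in female heterozygotes without overlap, and overlapped in males. The choroid plexus markers overlapped, at 330 to 406 and 354 to 434 CPM in males and 301 to 523 and 316 to 425 CPM in females.

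Neural progenitor markers had higher sums in heterozygous brains, with overlap in males and without it in females. They summed to 1664 to 1832 CPM in male Wiz +/+ and 1800 to 1895 CPM in male Wiz MommeD30/+ brain, and to 1680 to 1862 against 1880 to 1983 CPM in females. Neuron markers were at 4069 to 4243 and 4095 to 4194 CPM in males and at 4353 to 4621 and 4145 to 4295 CPM in females. Their sums too were lower in female heterozygotes without overlap, and overlapped in males. Granule and Purkinje cell markers had 416 to 445 and 453 to 465 CPM in males and 413 to 472 and 443 to 450 CPM in females, with no overlap in males. No gene of these lists was called in brain by edgeR, and DESeq2 called 1 of the granule and Purkinje markers in males. The part of cell composition in the Ifitm2 values was not tested. In cerebellum 4 of 6 tested erythroid markers (Hba-a1, Hba-a2, Hbb-bs and Alas2) were called higher in Wiz MommeD30/+. Of all genes, 0.832% were called there in either direction. With the rest of the list these markers summed to 267 to 483 against 146 to 228 CPM, and DESeq2 called 1 of them.

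The genes whose log2 levels ran most like those of each Ifitm gene were listed over all 16 samples, where tissue sets the pattern. For Ifitm2 they were Lcp2 (r = 0.99), Dnmt3b, Crispld1, Slc43a3 and BC065397 among 14782 genes, and Slc43a3 was named above beside Ifitm2 for male brain. For Ifitm10 they were Dgkz (r = 1.00), Rnf112, Itm2b, 1500009C09Rik and Faim2. Ifitm1 went with Sp100, itself interferon-induced, and with Ufsp2, Tmem47, Itgam and Vat1l, and Ifitm3 with Urm1, Ndst2, Dand5, Pttg1ip and Adamts2.

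Among themselves the 4 genes fell into 2 sets over the 16 samples. Ifitm1, Ifitm3 and Ifitm10 had Pearson's r of 0.96 to 0.97 with each other, and Ifitm2 had -0.90 to -0.97 with them. With the mean of each sex and genotype group removed, over the 10 embryonic brains, Ifitm2 had r of 0.46 with Ifitm3, 0.11 with Ifitm1 and 0.05 with Ifitm10. Its nearest genes there were Ube2c, Ctnnb1, Rfc4, Banf1 and Prkag1, the first at r = 0.99, of which Ube2c and Rfc4 are genes of the cell cycle and of DNA replication. These values describe 6 degrees of freedom searched over 14780 genes, in libraries of unequal depth.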

How the data were processed

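The authors sequenced polyA RNA from whole E13.5 brains and adult cerebellums as single-end reads of 100 bases, mapped them to mm10 with TopHat 2.0.11 and counted reads over gene exons with htseq-count 0.6.1. What the authors deposited are unnormalized counts, 1 value for each Ensembl gene in a sample. The counting mode, strand setting and annotation release are not given in the sources used here. Of 41388 identifiers, 40254 were found in GENCODE M21 (GRCm38), which gave symbols, positions and exon lengths, and the others held at most 0.171% of a sample's counts. The 3 ChIP-seq samples were not analysed here.

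Levels were expressed as CPM of total counts (16386029 to 50459755 per sample). Only the samples of a comparison entered its fit, made in R 4.3.3 with edgeR 4.0.16 (TMM, filterByExpr with a minimum count of 10, quasi-likelihood test, Benjamini-Hochberg). Over all genes, log2 fold changes had a median standard error of 0.065 (male brain), 0.095 (female brain) and 0.058 (cerebellum). The fits were tested on simulated data. The members and all gene lists were chosen with earlier results of these data known. For Ifitm2 no test between genotypes is given in any fit that contains embryonic brains. Named genes were the 4 members, Wiz, genes within 250 kb, the 5 most alike by Pearson's r of log2 CPM (prior count 2, mean of at least 1 CPM) and, of each list, those that passed and up to 4 of the most abundant. Motifs, shared windows and list values were computed in Python 3.11.15.

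Alternatives were DESeq2's size factors, DESeq2 1.42.0's Wald test, no filter on low counts, the replicate number as a block, adjusted p alone and leaving out each sample. Replicates of a group differed by more than sampling, at 2.05 to 10.5 chi-square units per degree of freedom. Whether same-numbered samples were paired was checked by correlating residual expression.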

Additional observations from a re-analysis of the deposited data

How the results depend on the processing

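Over the 28 combinations of gene and comparison, 324 values were recomputed, and 13 of them changed sign. In the 267 values with an adjusted p, no gene gained or lost a call. Those of Ifitm2 in female brain are among them and are not read as a test. Every sign change came from leaving out 1 sample, in genes that were not called or, for Ifitm2 by sex, not tested. Ifitm3 ranged from -0.0507 to 0.257 in male brain, from -0.190 to 0.0273 over both sexes, from -0.0109 to 0.0866 in cerebellum and from -0.228 to 0.0750 for genotype by tissue (log2). Ifitm1 ranged from -0.0228 to 0.155 over both sexes, and Ifitm10 from -0.404 to 0.0264 in female brain and from -0.102 to 0.332 for genotype by sex. Ifitm2 ranged from 0.40 to 0.47 in male brain, and from -0.178 to 0.0504 for genotype by sex, where it changed sign without either the first Wiz +/+ or the second Wiz MommeD30/+ female. Where a female brain was left out, the lone brain of its group is assumed to vary like the others. Counts of all genes called moved more. With 1 sample left out they were 20 to 117 in male brain (main count 31), 0 to 261 in female brain (19), 70 to 153 in cerebellum (133), 14 to 103 for genotype by tissue (45) and 0 to 13 for genotype by sex (0). Without the filter on low counts they were 175 in male brain, 101 over both sexes (61), 211 in cerebellum, 416 for genotype by tissue and 1 for genotype by sex. DESeq2's Wald test gave 32 in female brain, 80 in cerebellum, 121 for genotype by tissue and 1 for genotype by sex, and adjusted p alone gave 839 in cerebellum. The causes were not tested. With the replicate number as a block, Ifitm2 was at 0.44 in male brain, 0.37 in female brain (adjusted p = 0.438, edgeR) and 0.18 in cerebellum, and the counts of genes called were 23 in male brain, 3 in female brain and 13 for genotype by tissue. Residual correlations between same-numbered samples were -0.27 to -0.09 in male brain, -0.06 in female brain and -0.08 to 0.02 in cerebellum. Between different numbers they were -0.04 to 0.18, 0.06 and -0.13 to 0.13. Subtracting group means ties these values together, and with 2 brains a group they differ only in sign, so pairing is not excluded. Depth limits Ifitm10 in brain (9 to 29 counts) and Ifitm1 (15 to 77 counts) most.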
